A study of Drosophila melanogaster with 18 samples.

Results

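A set of 5 signalling genes carried 7 of the 173 variants listed for 3 Drosophila melanogaster lines of a muscle morphogenesis screen. These are the receptor genes ptc, Pvr and robo2, the ligand gene pyr, and the gene of the transcriptional effector shn. They are 5 of the 129 genes with a listed variant. A variant is counted once per line. The 6 variants that sj440 and sj266 share, pyr N264S among them, therefore count in both lines. The genes were chosen by their symbols with the consequences and quality scores of these same lists in view, so their values are a description and carry no test. Line sj461 had variants in ptc and robo2, line sj440 in Pvr and pyr, and line sj266 in pyr and shn. The list of sj461 held 67 distinct variants, that of sj440 held 68 and that of sj266 held 38. Of the 7 variants, 3 changed a residue (ptc C313S, and pyr N264S in both lines that carry it) and 4 changed a base of a splice site.

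The 5 genes act in pathways that pattern the embryonic mesoderm and shape what forms from it. Patched (Ptc) is the membrane receptor of Hedgehog and holds the signal transducer Smoothened inactive until the ligand binds, and Hedgehog from the ectoderm helps to subdivide the mesoderm along the body axis. Pyramus (Pyr) and its relative Thisbe are FGF ligands that activate the receptor tyrosine kinase Heartless, which mesoderm cells need in order to spread over the ectoderm and, in dorsal cells, to become muscle and heart progenitors. Pvr is the receptor tyrosine kinase for the PDGF- and VEGF-related ligands Pvf1, Pvf2 and Pvf3 and is best known for the survival and migration of embryonic haemocytes. Robo2 is one of the Roundabout receptors of Slit, a midline protein that guides axons, migrating muscle precursors and the alignment of heart cells. Schnurri (Shn) is a large zinc finger protein that binds DNA together with the Smad proteins Mad and Medea when Dpp, a BMP ligand, signals, and it represses brinker; Dpp from the dorsal ectoderm maintains tinman in the mesoderm beneath.

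The series has 18 samples of polyadenylated RNA from whole embryos at stage 12, in 6 mutant lines named by number only. Eggs were collected for 3 h at 25 °C and aged for 7 h, and embryos homozygous for the mutant chromosome were sorted by hand with the help of a fluorescent balancer chromosome. What a line carries beyond its number is not stated in the labels, and they name no wild-type or parental group. Lines sj461 and sj440 have 3 samples each and sj266 has 2, all with 2 replicate numbers, which the design text calls technical. One list was made per line over its samples, so no value below has a replicate error. Each variant has a quality score from the variant caller, a confidence value; the sources used here do not give its scale. Read depth, allele share, genotype and expression level are unknown, and all listed variants lie on chromosome arms 2L and 2R.

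The highest-scoring variant of the 5 genes was the cysteine-to-serine change C313S in the Hedgehog receptor gene ptc (FBgn0003892, transcript FBtr0089427), listed in sj461 with a quality of 228. It lies on 2R at position 8661096 of BDGP6, in the coding sequence of a gene that spans 8649649 to 8665223 in the RefSeq table of the same assembly. The genome change is T8661096A on the plus strand, from which the gene is read, and it turns codon 313 from Tgc to Agc at its first base. The coding position given for it, 937, places it in the same codon. A quality of 228 was the highest in sj461, where the next variant, V80M in CG7102, had 164. The same score was the highest over the 3 lists and was reached by 6 variants, ptc and 5 of sj440. Whether 228 is an upper limit of the score is unknown, so nothing is read from the gap below ptc. In sj266 the best 2 variants had 220 and 215. In sj461, 66 of 67 variants scored below ptc (98.5%, exact 95% interval 92.0 to 99.96), among them the other 43 missense changes, whose quality ran from 26.4 to 164.

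Of the 95 missense entries of the 3 lists, 2 changed a cysteine, in ptc and in CG17681 of sj266 (C258R, quality 56). The share of cysteine among all residues was not counted, so whether this is few is unknown. On the BLOSUM62 scale, in which a lower score marks a rarer exchange between related proteins, cysteine to serine scores -1. In sj461 8 of 44 missense changes had a lower score than this, 8 including ptc had the same score and 28 a higher one. The score of the ptc change was thus below the median of its list, 0, and not at its extreme. The nearest other listed variant on 2R in this line was an insertion or deletion in the protease gene Np, 334593 bp away. No other annotated gene spans the ptc position, although the gene's interval overlaps the noncoding RNA gene lncRNA:CR44281.

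**Figure D1:**
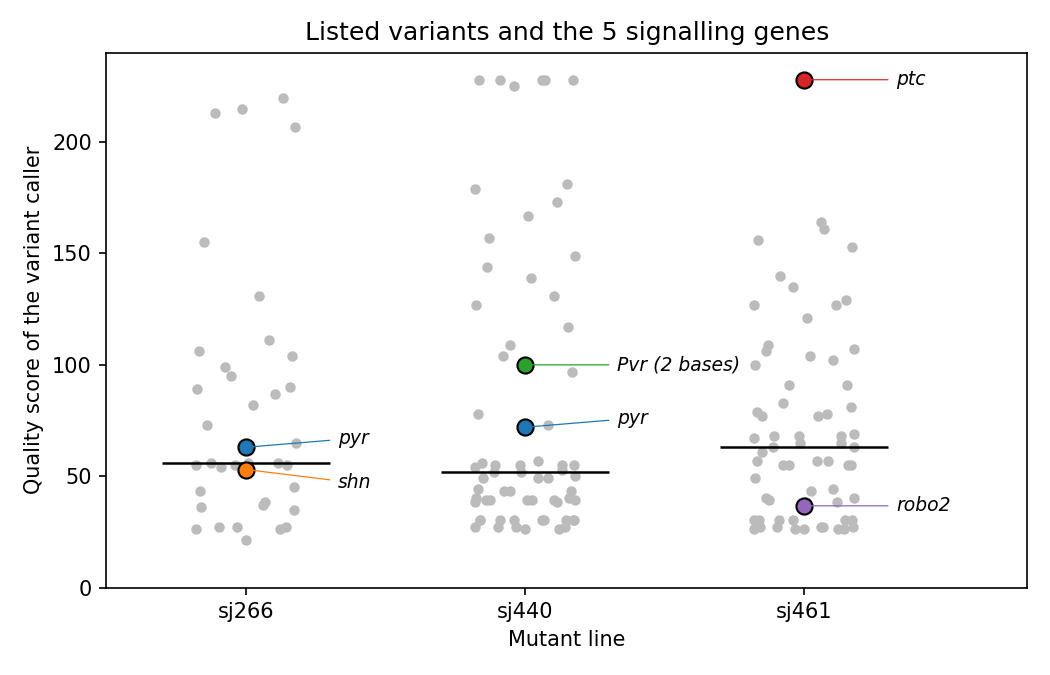
Quality score of every distinct listed variant (grey points) by mutant line, with the variants of the 5 signalling genes in colour and each list's median as a black bar (56 in sj266, 52 in sj440 and 63 in sj461). ptc stands at the top of sj461 at 228, Pvr and pyr lie above the median of sj440, and shn in sj266 and robo2 in sj461 lie below their medians.

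Pvr (FBgn0032006, transcript FBtr0079625) had both bases of 1 splice donor changed in sj440, each with a quality of 100. The donor lies on 2L at positions 8222890 and 8222891, in a gene that spans 8220980 to 8239878 and is read from the minus strand. The genome changes are C8222891T and A8222890C. On the RNA strand these are a G-to-A change at the first base of the intron and a T-to-G change at the second, so a GT donor reads AG if both lie on the same molecule. Whether they do is not recorded. In sj440, 47 of 68 variants scored lower (69.1%, exact 95% interval 56.7 to 79.8), and among splice-site variants alone 15 of 20 did. The variants next to it in quality were a splice donor of Lpin (104) and an insertion in mam (97). The nearest other listed variant on 2L was L77H in CG14274 (quality 30.4), 117387 bp from the first base of the donor. No other annotated gene spans the donor.

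The lists held further adjacent changes with the same score. Single-base variants of 1 list lay next to each other in 5 pairs, and in 5 of the 5 both had equal quality. Pvr was the only one of these pairs at a splice site, and its score of 100 was above those of the other 4, which ran from 26.4 to 55 and lay in Msp300, CG31897, CG13324 and CG43402, which were named after their values were seen. With the adjacent Pvr bases counted once, the 5 genes carried 6 variants.

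The Pvr ligand gene Pvf2 had a splice donor variant in the same line. Pvf2 (FBgn0031888, transcript FBtr0079423) lies on 2L from 7069536 to 7084635 and is read from the minus strand, and its change, A7070419G, is T-to-C on the RNA strand at the second base of the intron. Its quality was 38.4, with 15 of 68 variants of sj440 below it (22.1%, exact 95% interval 12.9 to 33.8). The ligand's variant was thus in the lower part of the list and the receptor's in the upper part. They lie 1152471 bp apart on the same arm. No effect of either on splicing or on the receptor's signal was measured.

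robo2 (FBgn0002543, transcript FBtr0077941) had a splice acceptor variant in sj461, with the lowest quality among the 5 genes, 36.7. It lies on 2L at position 1394759 in a gene that spans 1380086 to 1420453 and is read from the minus strand. The genome change C1394759A is G-to-T on the RNA strand, at the last base of the intron. In sj461, 16 of 67 variants scored lower (23.9%, exact 95% interval 14.3 to 35.9), and among its 12 splice-site variants 3 did and 8 scored higher. The variants next above it were G107A and L119I in CG15071 (both 38.4), and the 6 next below shared 30.4. They include D70N in CG43402, which is also the nearest listed variant on the arm at 48235 bp. The same line therefore held the best-scored variant of the 5 genes, in ptc, and the least well-scored one, in robo2. The interval of robo2 overlaps lncRNA:CR44898 and asRNA:CR44897, but neither spans the acceptor.

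The ligand gene pyr (FBgn0033649, transcript FBtr0113070) was the only one of the 5 with a variant in more than 1 list. N264S was listed in sj440 with a quality of 72 and in sj266 with 63, as the same change A11724790G on 2R, in a gene that spans 11712263 to 11726345 and is read from the plus strand. It turns codon 264 from aAc to aGc at its second base, and its coding position, 791, places it in that codon. In sj440, 43 of 68 variants scored lower (63.2%, exact 95% interval 50.7 to 74.6), and in sj266 20 of 38 did (52.6%, exact 95% interval 35.8 to 69.0). Both scores lay above the median of their list. With 1 score per line, whether 72 and 63 differ beyond error is unknown. The nearest listed variants on 2R were D842E in sha, 391168 bp away in sj440, and an insertion or deletion in tou, 135910 bp away in sj266.

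Asparagine to serine scores 1 on BLOSUM62, a positive value. In sj440 24 of 38 missense changes had a lower score and 6 a higher one, and in sj266 3 of 13 had a lower and 2 a higher one. No other gene had an asparagine-to-serine change among the 95 missense entries, of which 10 gained a serine, 3 of them in these genes (pyr in both lines and ptc). A further 5 variants were identical in sj440 and sj266, in Lpin, CG10764, HmgZ, ord and CG4341, and none was identical in sj461 and another line. Of these 6 in all, 4 scored higher in sj440, pyr among them, 1 was equal and 1, in HmgZ, was lower (30.4 in sj440 and 82 in sj266). On 2R the shared variant nearest to pyr was the Lpin donor, 3582901 bp away. The variant was entered more than once in each list, with every field the same. In all 3 lists 18 variants were repeated in this way, and the other 16 were of the class of insertions or deletions. Among the 145 single-base variants, only those of pyr were repeated.

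The effector gene shn (FBgn0003396, transcript FBtr0088098) had a splice donor variant in sj266 with a quality of 53. It lies on 2R at position 11214200 in a gene that spans 11159086 to 11217394 and is read from the plus strand, and the change G11214200A affects the first base of the intron. In sj266, 12 of 38 variants scored lower (31.6%, exact 95% interval 17.5 to 48.7). Among the 15 splice-site variants of this line 7 scored lower and 7 higher, so that shn stood at their median. Next above it in quality was the insertion or deletion in tou (54), which is also the nearest listed variant on the arm at 374680 bp. Next below was the donor of galla-1 (45.3). shn and pyr lie on the same arm and were both listed in sj266, with pyr the higher in quality. CG13229 overlaps the interval of shn without spanning the donor.

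**Figure D2:**
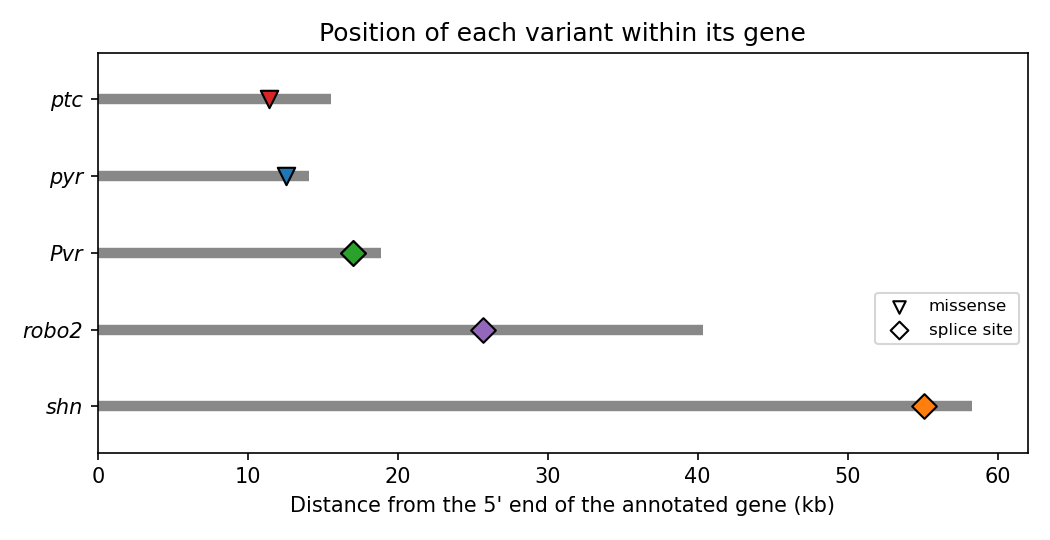
Position of each variant (triangles, missense; diamonds, splice site) as its distance in kb from the 5′ end of the annotated gene, drawn as a grey bar to scale. They lie from 63.6% of the gene's length in robo2 to 94.5% in shn, and 59.5% of all listed variants lie past the midpoint of their gene; both Pvr bases fall under 1 symbol.

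Within the annotated intervals, introns included, 7 of the 7 variants lay past the midpoint counted from the 5′ end, as did 103 of all 173 listed variants (59.5%). The median position was 89.0% of the gene's length for the 7 and 62.9% for all 173. The genes were not chosen by position, but so few variants, 2 of them adjacent and 2 identical, do not show that they differ from the rest. The distance was 11447 of 15575 bp in ptc (73.5%), 12527 of 14083 bp in pyr (89.0%), 16987 of 18899 bp at the first donor base of Pvr (89.9%), 25694 of 40368 bp in robo2 (63.6%) and 55114 of 58309 bp in shn (94.5%). These shares are of genomic length and do not give the position in the protein. The RefSeq table lists 1 transcript each for ptc and pyr, 2 for robo2, 6 for shn and 13 for Pvr, so the splice sites of Pvr, shn and robo2 are placed on 1 of several transcripts, and whether the others use them was not tested. Whether the transcripts on which the ptc and pyr changes were annotated are those of the RefSeq table was not checked.

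The 4 splice-site variants (57.1% of the 7, exact 95% interval 18.4 to 90.1) stand beside 47 of 173 over the 3 lists, or 27.2%. The 7 are not the independent draws that the interval assumes. With the adjacent Pvr bases counted once, the share was 50% of 6. As the genes were chosen with these annotations known, nothing is read from the difference between their share and that of all lists. By base, 2 were at the first and 1 at the second base of a donor (Pvr, shn and Pvr), and 1 was at the last base of an acceptor (robo2). Over all 47 splice-site variants 15 were at the first and 10 at the second base of a donor, 8 at the last base but one and 14 at the last base of an acceptor. Of the 15 at the first donor base, G-to-A changes as in Pvr and shn were 5, as many as G-to-C and G-to-T. Of the 14 at the last acceptor base, 6 were G-to-T as in robo2 and 8 G-to-A. The T-to-G change at the second base of the Pvr donor was 1 of 2 of its kind among 10. These bases belong to the intron, which spliced RNA lacks; the source of the reads that carried them is not recorded and was not tested.

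**Figure D3:**
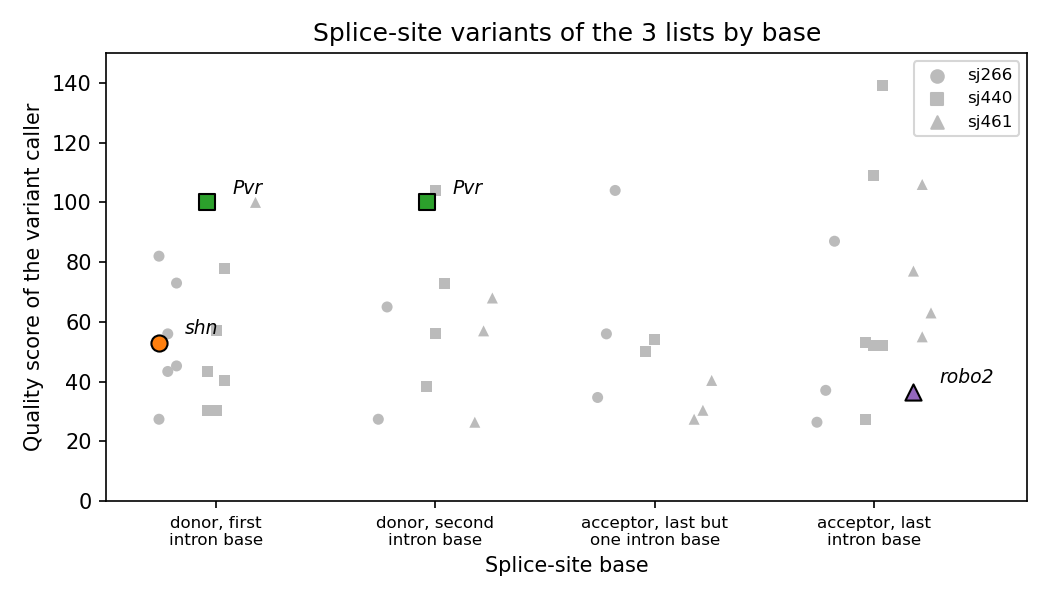
Quality scores of the 47 splice-site variants of the 3 lists by the base of the donor or acceptor they change, with a symbol per line and the signalling genes in colour. Both Pvr bases stand at 100, shn at 53 among the first donor bases and robo2 at 36.7 low among the last acceptor bases.

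The quality of the 7 variants had a median of 72 and a range of 36.7 to 228, beside a median of 55 over all 173. A quality of 100 or more was reached by 3 of the 7, ptc and both Pvr bases, and by 27.2% of all listed variants. The 7 hold the adjacent Pvr bases, of equal score, and the identical pyr change in both its lists. They are therefore not 7 separate observations, and nothing is read from these differences. In order, ptc (228) came first, then Pvr (100 at each base), pyr (72 in sj440 and 63 in sj266), shn (53) and robo2 (36.7). Since a score has no replicate, neighbours in this order cannot be told apart. The order also crosses 3 lists and 2 classes of variant, whose scores may not share a scale.

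Over all gene lists together, 1 of 43 other genes on chromosome 2 had a variant (2.33%). Of the chromosome's 5508 protein-coding genes, 129 had one (2.34%). The 43 genes are not all of these pathways, as they include 12 from a separate list of mesoderm and muscle identity. The share of the lists rests on 1 gene, Pvf2, so nothing is read from its closeness to that of the chromosome. The counts of the single lists below are small and are read only against the chromosome's share. Of 4 further Hedgehog genes on chromosome 2, among them smo, the transducer that Ptc inhibits, and cos, a scaffold of the pathway's cytoplasmic complex, 0 had a variant. Of 6 further FGF and Ras-MAPK genes 0 had one, ths included, and 0 of 9 further Slit-Robo genes had one, with sli, robo1 and robo3 among those without. Of 9 further Dpp genes, dpp itself, its receptor gene tkv and the Smad gene Mad included, 0 were listed. Of 4 further genes of the PVR list 1 was, Pvf2, while Pvf3 was not. Of 12 chromosome 2 genes of mesoderm and muscle identity, such as twi, Mef2 and eve, 0 were listed. An unlisted gene may hold a variant that was not expressed, not covered or not kept, and genes on other chromosomes, such as hh, ci and htl, lie outside the arms that these lists cover.

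**Figure D4:**
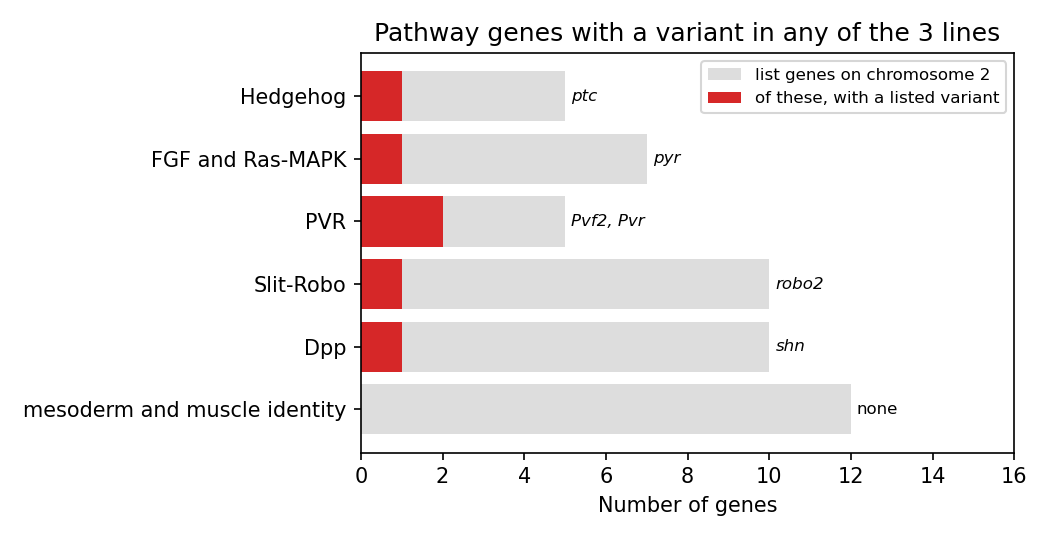
Number of list genes on chromosome 2 (grey bars) and of those with a listed variant in any of the 3 lines (red bars, with gene names). Each of the signalling lists holds the gene that led to it, the PVR list also holds Pvf2, and the list of mesoderm and muscle identity holds none of its 12 genes.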

How the data were processed

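Polyadenylated RNA of whole embryos was sequenced, and the lists of lines sj266, sj440 and sj461 were used; the other lines were not analysed here. The submitters' processing notes name STAR 2.5.4b, cutadapt 2.4 and the build BDGP6, without saying what each was used for. The sources used here do not give the program that called, filtered or annotated the variants. Each list the authors deposited gives a quality score, a position, and the annotated consequence and residue per variant. Worksheet names gave the line of each list.

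Entries of 1 list with the same position and alleles were merged, and a variant found in more than 1 list was counted in each. Ranks are the share of distinct variants of a list with a lower score, the ranked variant included in the total. The exact (Clopper-Pearson) 95% intervals treat the variants of a list as independent draws, which neighbouring variants of a gene may not be. Each list was used whole, so a share is itself an exact count. The intervals show only how a share would vary over as many independent draws. They measure neither the error of a score nor that of a rank. Depth is unknown, so no interval on a call could be given. Splice-site bases were read on the RNA strand and numbered by assuming GT-AG introns; the reference base of all 47 fitted this. Gene intervals came from the RefSeq gene table of Release 6, and all 129 genes matched, 8 under a newer symbol. The 6 gene lists, like the 5 genes, were chosen with earlier results of these data known. Named genes were the 5 genes, listed members of the gene lists, neighbours in quality and position, and variants shared with another line. Genes of the adjacent pairs and examples of list genes with no listed variant were named outside that rule. No protein or genome sequence was used here, so the planned comparison of residues with reference proteins and the alignments with related proteins were not run. Values were computed with scipy 1.17.1, numpy 2.4.6, pandas 2.3.3 and Biopython 1.88 in Python 3.11.15.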

Additional observations from a re-analysis of the deposited data

How the results depend on the processing

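No paired analysis was possible because each line has 1 list over its samples, and for the same reason no replicate could be left out. Of 76 recomputed values 59 stayed within their limits (a count within 1.5 times, a share within its exact interval). Some of these could not move. The lowest score of the 7 variants was 36.7, so a minimum of 30 removed none of them. The list of mesoderm and muscle identity, with 0 listed genes, stays at 0 under any filter. The tally is therefore not a measure of stability. With a quality of 100 or more, the variants of the 5 genes numbered 3 in place of 7, with 0 in sj266 and 1 in sj461 (ptc), and with 50 or more sj461 also kept 1. At 100 or more, the gene lists together held 2 listed genes in place of 6: 1 in the PVR list (Pvr) and 0 in the FGF, Slit-Robo and Dpp lists. At 50 or more the PVR list held 1 and the Slit-Robo list 0. Without splice-site variants the lists together held 2 genes, ptc and pyr, with 0 in the PVR, Slit-Robo and Dpp lists. Against missense changes alone, 76.3% of sj440 scored below pyr. Within 100 bp, 12 of 18 pairs of variants had equal quality, where within 10 bp 6 of 6 did. Read depth, which would say how well each call is supported, is unknown.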
